A study of Mus musculus with 6 samples.

Results

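The ErbB receptors and the EGF-family growth factors that bind them were followed as 10 genes: the receptors Egfr, Erbb2, Erbb3 and Erbb4, and the ligands Areg, Ereg, Btc, Hbegf, Tgfa and Nrg1. Members were chosen by symbol, and every probe annotated to a member was taken. This gave 19 of the 45279 probes on the array and 9 of the 10 genes, because Areg had no probe annotated to it and was not analysed here. The samples were 3 breast tumours of Cyp27b1 knockout mice (Cyp27b1 flox/flox;Cre+) and 3 of control mice (Cyp27b1 flox/flox;Cre-), all on the FVB background and each hybridised to 1 Illumina mouse bead array. Both groups carried floxed Cyp27b1, the gene of the hydroxylase that completes the synthesis of active vitamin D, and only the knockout mice carried Cre recombinase, so an effect of Cre cannot be told apart from that of the deletion. The series title places the deletion in mammary epithelium. The promoter that drives Cre, the origin of the tumours and the age of the mice are given in none of the sources used here. No label ties a tumour to an animal, so the p-values cover only the spread among these tumours, which may be technical.

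ErbB receptors are tyrosine kinases that pair with each other at the cell surface and signal through the Ras-ERK and PI3K-AKT pathways. Egfr binds Areg, Tgfa and, with Erbb4, also Ereg, Btc and Hbegf. Erbb3 and Erbb4 bind the neuregulins such as Nrg1. Erbb2 has no known ligand and acts as the preferred partner of the others, and Erbb3 has a weak kinase. In the mammary gland, amphiregulin and Egfr drive the growth of ducts, and amplified ERBB2 defines a class of human breast cancer.

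The Cyp27b1 probe lay at background in all 6 tumours, at a normalized log2 signal of 4.36 ± 0.07 in knockout tumours and 4.34 ± 0.05 in control tumours (SD, n = 3 each). The difference was 0.02 (exact two-sided permutation test, p = 0.80, where 3 tumours against 3 cannot go below 0.1), so the probe checks nothing about the deletion. The summed signal intensity of an array ran from 12309700 to 14815000 in knockout tumours and from 10692100 to 13394400 in control tumours. Between 33.4% and 36.1% of probes were above background on an array. Of 13 tested markers of luminal epithelium, 7 rose and 6 were not called in knockout tumours, where 4.47% of all tested genes rose by the probe of highest mean. None of the 17 luminal markers with a probe was at background in all 6 tumours. Of these, Pgr was above background in at least 1 control tumour but in no knockout tumour. On the second principal component knockout 1 stood apart at 53.5, against -26.2 and -31.5 for knockout 2 and 3.

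Nrg1, the neuregulin that activates Erbb3 and Erbb4, was the 1 member of 6 tested that passed the test, where 11.0% of all tested genes had a called probe, and it fell in the knockout tumours. Before normalization the signal intensity of its bright probe, ILMN_2971688, was 159, 145 and 140 in knockout tumours 1, 2 and 3, against 393, 394 and 296 in control tumours 1, 2 and 3. After background correction and quantile normalization the log2 signals were 5.87, 5.95 and 5.57 in the knockout tumours, against 8.19, 8.21 and 8.25 in the control tumours. Every knockout tumour lay far below every control tumour, and the 3 control tumours were nearly the same. The change was -2.42 ± 0.19 log2 units (SE, limma adjusted p = 0.0021), a 5.35-fold lower signal, with a 95% interval for the ratio of knockout to control from 0.138 to 0.254. All 6 tumours were above background at this probe. The size depends on the background correction, since the log2 change was -1.32 without it and -1.04 in the authors' deposited normalized values, both still called. The other 2 probes of Nrg1 were at background in all 6 tumours, so the fall rests on 1 of 3 probes. All 3 probes are annotated to the same transcript record.

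In these tumours, fewer cells of a type and less RNA per cell cannot be told apart. Markers of fibroblasts and matrix were lower in the same knockout tumours: of 16 tested, 0 rose, 8 fell and 8 were not called, with a median log2 difference of -2.60. Their summed normalized signal ran from 6646 to 14708 in knockout tumours, against 44932 to 60679 in control tumours, and Postn was at background in all 6. At an unadjusted p below 0.05 in limma, 14 had lower values and 0 higher, where 3923 of all 15885 tested probes passed that limit. Over all tested genes, 4.47% rose and 5.63% fell by the probe of highest mean. Within the knockout group the mean log2 signal of the fibroblast list was 6.43, 7.33 and 8.25 in tumours 1, 2 and 3. The log2 signal of Nrg1 was 5.87, 5.95 and 5.57 in these tumours. Whether the stromal share has a part in the fall of Nrg1 was not tested. Of the other marker lists, basal epithelium had 1 riser and 3 fallers among 8 tested. Schwann cells, which depend on neuregulin, had 1 riser among 2 tested markers. Endothelium, T and NK cells, adipocytes, skeletal muscle and B cells had 1 tested marker each, macrophages 3, and neutrophils and mast cells 2. Limma called 0 of these 10, with 4 at an unadjusted p below 0.05. These were lower in endothelium, T and NK cells and skeletal muscle, and higher in macrophages. Adgre1, C1qa, C1qb and C1qc of macrophages, Emcn, Cd3e and Cd79b were above background in at least 1 control tumour but no knockout tumour. The same held for Pgr of the luminal list, Cnn1 of the basal list and Col5a2 of the fibroblast list. Markers in the reverse state were not counted.

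The genes whose log2 signals over the 6 tumours ran closest to those of Nrg1, by the root mean square difference after subtracting each probe's mean, were Akap12, Hs6st2 and Wnt5a. Akap12 encodes a scaffold of protein kinase A, and differed from Nrg1 by 0.19 log2 units. It lay at 7.81, 7.77 and 7.83 in the knockout tumours, against 10.12, 10.15 and 9.88 in the control tumours. Hs6st2, a sulfotransferase of heparan sulfate, was above background in 0 of 3 knockout tumours and all 3 control tumours, so its likeness to Nrg1 in the knockout group rests on values that are only a bound. Wnt5a, a secreted Wnt ligand, differed by 0.22 units, with 5.44, 6.03 and 5.58 in the knockout tumours against 8.33, 8.19 and 7.87 in the control tumours. These genes were picked for their likeness, so their own changes are a description. For Akap12 and Wnt5a, which were above background in all 6 tumours, the knockout tumours lay well below the control tumours.

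**Figure D1:**
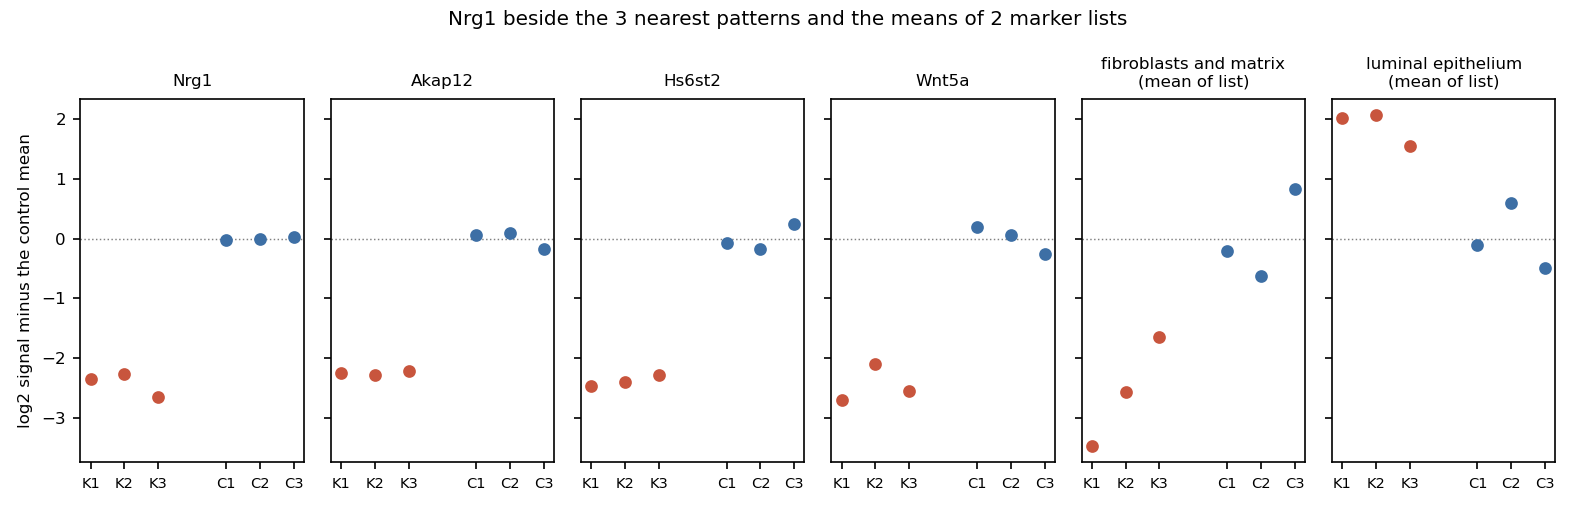
Normalized log2 signal minus the control mean (y axis) in knockout tumours (K1 to K3, red) and control tumours (C1 to C3, blue) for Nrg1, the 3 genes of nearest pattern, and the means of the fibroblast and luminal marker lists, 1 point per tumour. Nrg1, Akap12 and Wnt5a lie lower in all 3 knockout tumours, the knockout points of Hs6st2 are below background, and the fibroblast mean spreads more widely within the knockout group.

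Among the receptors, Erbb2 had higher values in every knockout tumour, without passing the test. Its single probe gave log2 signals of 7.74, 8.03 and 8.18 in the knockout tumours, against 7.11, 6.67 and 7.60 in the control tumours. Before normalization the signal was 370, 332 and 373 in the knockout tumours, against 229, 193 and 221 in the control tumours. The groups did not overlap, but after normalization the lowest knockout tumour and the highest control tumour lay close together. The difference was 0.86 ± 0.27 log2 units (SE, limma adjusted p = 0.096), with a 95% interval from 0.23 to 1.49, or a ratio of knockout to control between 1.17 and 2.81. Luminal markers were higher in the same tumours: the median log2 difference over 13 tested was 1.67, and their summed normalized signal ran from 16575 to 33766 in knockout tumours against 6074 to 14577 in control tumours. The part of the luminal share in the values of Erbb2 was not tested. The log2 difference of Erbb2 was 0.45 in the authors' deposited normalized values (adjusted p = 0.084) and 0.54 without background correction (adjusted p = 0.091). Erbb2 was called in 1 of the 14 alternatives, with array quality weights in the fit (0.95, adjusted p = 0.041).

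The 300-base promoter windows of Erbb2 and Egfr are shown because these were the only receptors with a tested probe, 1 with separate groups and 1 with overlapping groups. In the human ERBB2 promoter, ETS transcription factors are known to bind a GAGGAA element, and the capitals mark that element on either strand. The sequences are from RefSeq in build GRCm38.p6, plus strand, from 250 bases before the start of the gene to 50 after it, at chr11:98412234-98412533 for Erbb2 and chr11:16751953-16752252 for Egfr.
Erbb2: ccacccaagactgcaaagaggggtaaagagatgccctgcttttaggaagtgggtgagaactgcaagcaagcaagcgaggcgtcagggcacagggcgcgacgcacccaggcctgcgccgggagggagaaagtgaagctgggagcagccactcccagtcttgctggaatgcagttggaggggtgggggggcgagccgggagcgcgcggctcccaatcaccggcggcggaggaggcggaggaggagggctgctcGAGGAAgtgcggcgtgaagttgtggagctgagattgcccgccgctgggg
Egfr: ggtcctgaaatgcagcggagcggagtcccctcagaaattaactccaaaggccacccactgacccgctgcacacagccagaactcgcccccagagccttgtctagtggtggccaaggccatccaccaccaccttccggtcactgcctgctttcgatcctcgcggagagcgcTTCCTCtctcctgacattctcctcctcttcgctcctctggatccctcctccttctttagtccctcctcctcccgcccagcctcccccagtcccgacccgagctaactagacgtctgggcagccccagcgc

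Each window held GAGGAA once, and 28.3% of 32851 windows of the same length held it at least once. The box GGGCGG of Sp1 factors was found once in the Egfr window and not in that of Erbb2, and in 35.7% of all windows. The vitamin D receptor is known to bind pairs of half-sites 3 bases apart. Neither 2 copies of AGGTCA with any 3 bases between them nor 2 copies of GGTTCA spaced likewise, searched on both strands, were in any of the 6 member promoters in the table (Egfr, Erbb2, Erbb4, Areg, Btc and Tgfa). Each of these exact forms was in 0.00609% of all windows. These motifs do not overlap each other in the windows shown.

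The neighbours of Erbb2 on chromosome 11 include genes that are gained together with ERBB2 in human breast cancer. Of 20 neighbours listed, 13 were tested, 2 rose, 0 fell and 11 were not called, with a median log2 difference of 0.27 against 0.05 over all 9354 tested genes. By the same probe choice 10.1% of all tested genes were called and 4.47% rose. At an unadjusted p below 0.05 in limma, 4 neighbours had higher values and 1 a lower value, where 3923 of all 15885 tested probes passed that limit. Pgap3, a gene of lipid remodelling on GPI anchors that lies next to Erbb2, was not above background in any control tumour and was at least 1.46-fold higher in knockout tumours (adjusted p = 0.021). Its log2 signals were 5.33, 5.47 and 5.74 in the knockout tumours, against 4.42, 4.58 and 4.55 in the control tumours. Ppp1r1b, an inhibitor of protein phosphatase 1 that lies 5 places before Erbb2, rose by 0.98 ± 0.24 log2 units (SE, adjusted p = 0.046). The sizes of both dim genes rest on the background correction, since in the authors' deposited normalized values they were 0.21 each and not called. Both also lost the call when single tumours were left out, without any of 5 tumours for Ppp1r1b (all but control 2) and without any of 4 for Pgap3 (all but knockout 1 and control 2). Mien1 on the other side of Erbb2 had a difference of 0.22 (adjusted p = 0.62) and Grb7, the next gene, 1.24 (adjusted p = 0.064). Both were named after their values were seen, and genes with larger and smaller differences stood side by side along the segment.

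**Figure D2:**
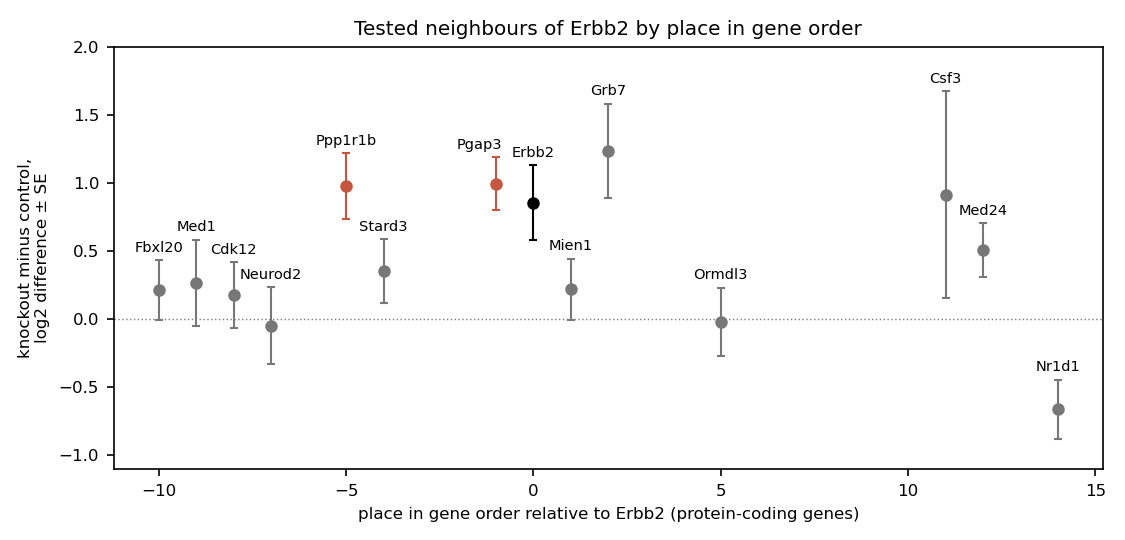
Knockout minus control log2 difference (y axis, error bars SE, n = 3 tumours per group) of the tested neighbours of Erbb2 by place in gene order (x axis, 0 is Erbb2). Red marks the called genes Ppp1r1b and Pgap3, black Erbb2, and grey the genes that were not called.

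Egfr, the receptor of most of these ligands, was not called by any of its 5 tested probes. The brightest, ILMN_2693922, lay at 10.13, 9.76 and 10.37 in the knockout tumours, against 10.02, 10.11 and 10.56 in the control tumours. Another, ILMN_3128725, lay at 7.61, 7.48 and 7.65 in the knockout tumours, against 7.63, 7.71 and 8.91 in the control tumours. The probe with no transcript record, ILMN_1241496, lay at 9.02, 8.66 and 9.30 in the knockout tumours, against 8.78, 8.94 and 9.81 in the control tumours. After normalization the groups overlapped at all 5 probes, and control 3 was the highest of the 6 tumours at each of them. Before normalization knockout 1 was highest at ILMN_2693922 (1538, control 3 1212) and ILMN_1241496 (775, control 3 732). Knockout 3 was then highest at ILMN_2614432 (141, control 3 134), and control 3 at ILMN_3052260 (314) and ILMN_3128725 (418). At ILMN_3052260 the normalized log2 values were 6.90, 6.58 and 7.19 in the knockout tumours, against 7.01, 7.01 and 8.36 in the control tumours. At the dimmest tested probe, ILMN_2614432, they were 5.13, 5.48 and 5.61 in the knockout tumours, against 5.50, 4.73 and 6.01 in the control tumours, where control 2 was not above background. A further probe of Egfr was at background in all 6 tumours. The summed normalized signal of the fibroblast markers was also highest in control 3, at 60679, and its part in these values was not tested. Differences ran from -0.57 (95% interval -1.46 to 0.32, limma adjusted p = 0.42) to 0.00 (-0.78 to 0.77, adjusted p = 1.00). The 2 probes annotated to the transcript NM_007912 gave -0.57 and -0.50, and the 2 annotated to NM_207655 gave -0.14 and 0.00. Without control 3 the first pair gave -0.12 and -0.09, and the second 0.03 and 0.31. In the authors' deposited normalized values the first pair gave -0.28 and -0.30. At the brightest probe the 95% interval for the ratio of knockout to control ran from 0.613 to 1.34.

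Erbb3 and Erbb4, the receptors of Nrg1, were not measurable. The Erbb3 probe was above background in knockout 1 alone, with log2 signals of 4.98, 4.43 and 4.47 in the knockout tumours against 4.61, 4.57 and 4.50 in the control tumours. Both probes of Erbb4 were at background in all 6 tumours, with log2 signals between 4.34 and 4.81. A low probe signal bounds what these probes can see and does not show that a receptor is missing.

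**Figure D3:**
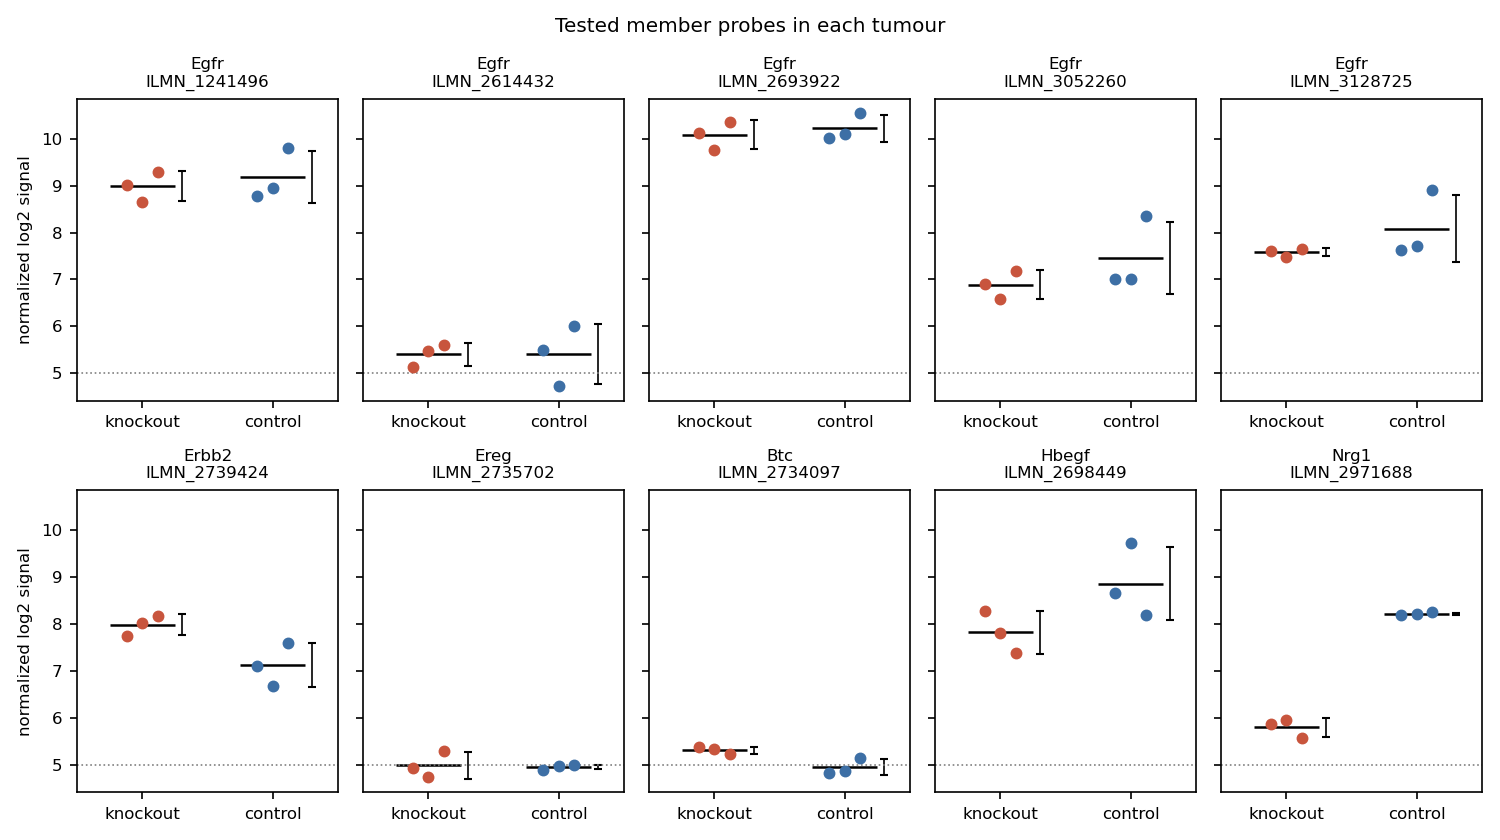
Normalized log2 signal (y axis) of the 10 tested member probes in each tumour, knockout in red and control in blue, with the mean (horizontal line) and SD (bar at the side, n = 3). The dotted line is the highest of the arrays' floors, a floor being the lowest signal above background on an array. The groups at Nrg1 stand far apart, those at Erbb2 and Btc just clear each other, and those at Egfr, Ereg and Hbegf overlap.

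Hbegf, a heparin-binding ligand of Egfr and Erbb4, had lower values in the knockout tumours on average but did not pass. Its bright probe gave 8.29, 7.82 and 7.38 in the knockout tumours, against 8.67, 9.72 and 8.20 in the control tumours. Control 2 was the highest, and knockout 1 lay just above control 3, so the groups overlapped. The difference was -1.04 ± 0.41 log2 units (SE, limma adjusted p = 0.17), with a 95% interval from -1.98 to -0.09. It was -0.60 without control 2 and -0.69 in the authors' deposited normalized values. The other probe of Hbegf was at background in all 6 tumours.

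Btc and Ereg were close to background. Btc, betacellulin, gave 5.38, 5.33 and 5.22 in the knockout tumours, all above background, against 4.82, 4.87 and 5.14 in the control tumours, where 1 of 3 was. The groups did not overlap, yet the difference of 0.36 ± 0.19 log2 units (SE, limma adjusted p = 0.29) was small and shrank to 0.06 in the authors' deposited normalized values. Ereg, epiregulin, had a brighter probe at 4.92, 4.74 and 5.30 in the knockout tumours, against 4.89, 4.98 and 4.98 in the control tumours. Its difference was 0.03 (95% interval -0.45 to 0.52, adjusted p = 0.95). Tgfa was at background in all 6 tumours, with log2 signals between 4.36 and 4.58.

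**Figure D4:**
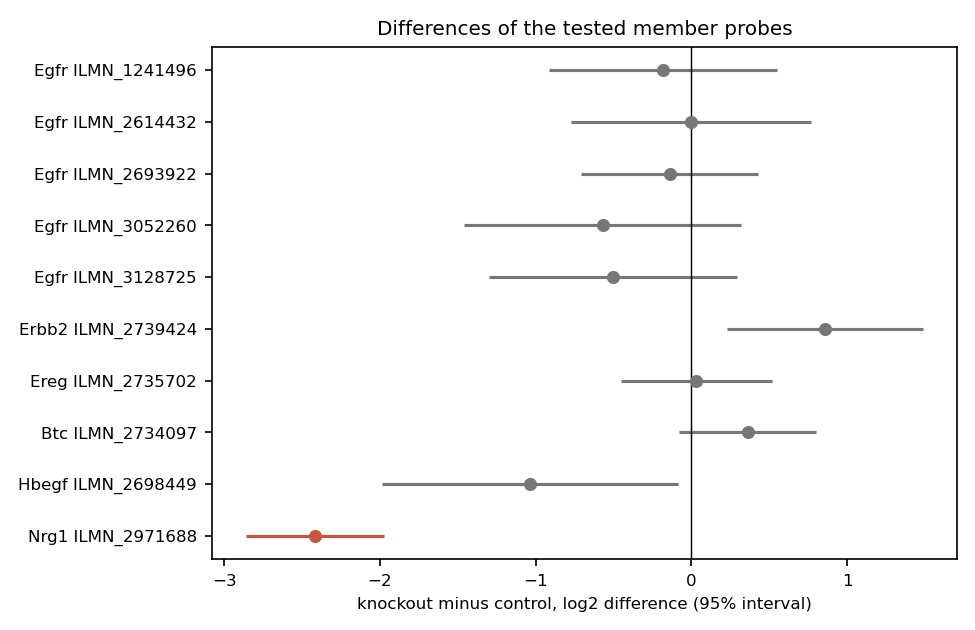
Knockout minus control log2 difference (x axis) of the 10 tested member probes with the 95% interval from limma. Red marks the called probe of Nrg1, at -2.42. The intervals of Erbb2 and Hbegf lie on 1 side of 0 without a call after adjustment over all probes.

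Across the family, 1 of the 6 tested members was called, and 1 of 10 tested probes, where 9.20% of all tested probes were called. In the lower direction alone 5.06% of probes were called, and limma gave the tested probes of Nrg1 and Hbegf an unadjusted p below 0.05. In the higher direction 4.14% were called, with no member probe among them. There limma gave 1 member probe, that of Erbb2, an unadjusted p below 0.05. Of all 15885 tested probes, 3923 were at an unadjusted p below 0.05 in either direction. By probe of highest mean, the median log2 difference was 0.36 over the 2 tested receptors and -0.50 over the 4 tested ligands, against 0.05 over all genes. Groups did not overlap for at least 1 probe of 3 members (Nrg1, Erbb2 and Btc), where 36.4% of all tested genes had such a probe and 30.2% of all tested probes were of this kind. So few members were tested that these shares say little about the family. By p the Nrg1 probe had rank 13 of the 15885 tested, and by size rank 233 of the 804 probes that fell.

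Other genes of the pathway were mostly not called. Of 72 listed, 63 had a probe and 48 were tested. By the probe of highest mean, 3 rose, 0 fell and 45 were not called, with a median log2 difference of 0.04. At an unadjusted p below 0.05 in limma, 7 had higher and 8 lower values, where 3923 of all 15885 tested probes passed that limit. Over all genes 4.47% rose and 5.63% fell by the same probe choice. Without knockout 1 there were 7 calls, without knockout 2 there was 1, and without control 1 or control 3 there were 0.

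Among the adaptors and kinases, 2 of 16 tested genes rose and 14 were not called, where 10.1% of all tested genes were called by the same probe choice. Gab1, a docking protein that ties active Egfr to PI3K, lay at 9.78, 9.48 and 9.41 in the knockout tumours, against 8.50, 8.62 and 8.15 in the control tumours. It rose by 1.14 ± 0.21 log2 units (SE, limma adjusted p = 0.018), with a wide gap between the groups. The call was lost without knockout 2 (0.062), control 1 (0.067) or control 3 (0.059). Pik3r1, the regulatory subunit p85 of PI3K, lay at 11.52, 12.47 and 12.44 in the knockout tumours, against 11.15, 10.58 and 10.78 in the control tumours. It rose by 1.30 ± 0.31 log2 units (SE, adjusted p = 0.038), and 3 of its 4 probes were called, at 1.02 to 1.37. The call of its brightest probe was lost in the authors' deposited normalized values (1.24, adjusted p = 0.063), without the filter (0.12), and without knockout 2, knockout 3 or any of the control tumours (0.078 to 0.13). Luminal markers were higher in the same tumours (median 1.67), and their part in these rises was not tested.

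Among the proteases that release ligands from the cell surface and their carriers, 1 of 7 tested genes rose and 6 were not called. By the same probe choice 10.1% of all tested genes were called and 4.47% rose. Adam17, the main sheddase of Areg, Tgfa, Hbegf and Ereg, lay at 8.61, 8.83 and 8.80 in the knockout tumours, against 7.95, 7.74 and 8.12 in the control tumours. The groups were well apart, and it rose by 0.81 ± 0.20 log2 units (SE, limma adjusted p = 0.042). That call was lost with cyclic loess normalization (0.052) and without each tumour other than knockout 1 (0.068 to 0.14). Adam12, a protease of stromal and tumour cells, gave 4.64, 5.37 and 6.33 in the knockout tumours, against 6.64, 7.12 and 6.91 in the control tumours. Its difference of -1.44 (adjusted p = 0.064) was called without knockout 3 (-1.89, adjusted p = 0.014), and was -0.42 in the authors' deposited normalized values (adjusted p = 0.091). Of the carriers of Adam17, Rhbdf1 gave 0.79 (adjusted p = 0.12), named after its values were seen.

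Among the remaining ligands outside the family's 10 genes, only Epgn was above background in enough tumours to be tested. Epgn, epigen, an Egfr ligand encoded near Ereg, Areg and Btc on chromosome 5, gave 8.77, 6.92 and 6.26 in the knockout tumours, against 8.66, 8.77 and 8.95 in the control tumours. Knockout 1 lay with the control tumours and the other 2 knockout tumours far below. The difference of -1.48 ± 0.57 log2 units (SE, limma adjusted p = 0.16) was not called. It was called without knockout 1 (-2.18, adjusted p = 0.0042) and with array weights (-1.73, adjusted p = 0.0485). It was -0.96 without knockout 3 and -0.79 in the authors' deposited normalized values, neither called. Egf, Nrg3 and Nrg4 were at background in all 6 tumours.

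None of the 13 tested inhibitors passed the test, and none of the 11 tested ERK response genes did (medians -0.13 and -0.02). At an unadjusted p below 0.05 in limma there were 2 inhibitors and 3 response genes, where 3923 of all 15885 tested probes passed that limit. Of the inhibitors Dusp4, a phosphatase that switches ERK off, had the smallest p, at 8.23 ± 0.55 in knockout tumours and 9.30 ± 0.38 in control tumours (SD, n = 3 each). Its groups did not overlap, with hardly a gap between them. Its difference was -1.07 (adjusted p = 0.082), and 2 other probes gave -1.04 and -1.14, neither called. Dusp4 was called without knockout 1, at -1.38 (adjusted p = 0.020), and with array weights, at -1.31 (adjusted p = 0.023). Lrig3, of a family of receptor regulators, gave -0.74 (adjusted p = 0.19). Fos, an immediate early transcription factor, gave 1.09 (adjusted p = 0.13), called without knockout 3 (1.52, adjusted p = 0.029), and Etv4, an ETS factor, -0.70 (adjusted p = 0.14). In the authors' deposited normalized values Fos gave 0.67 and Etv4 -0.40, neither called.

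**Figure D5:**
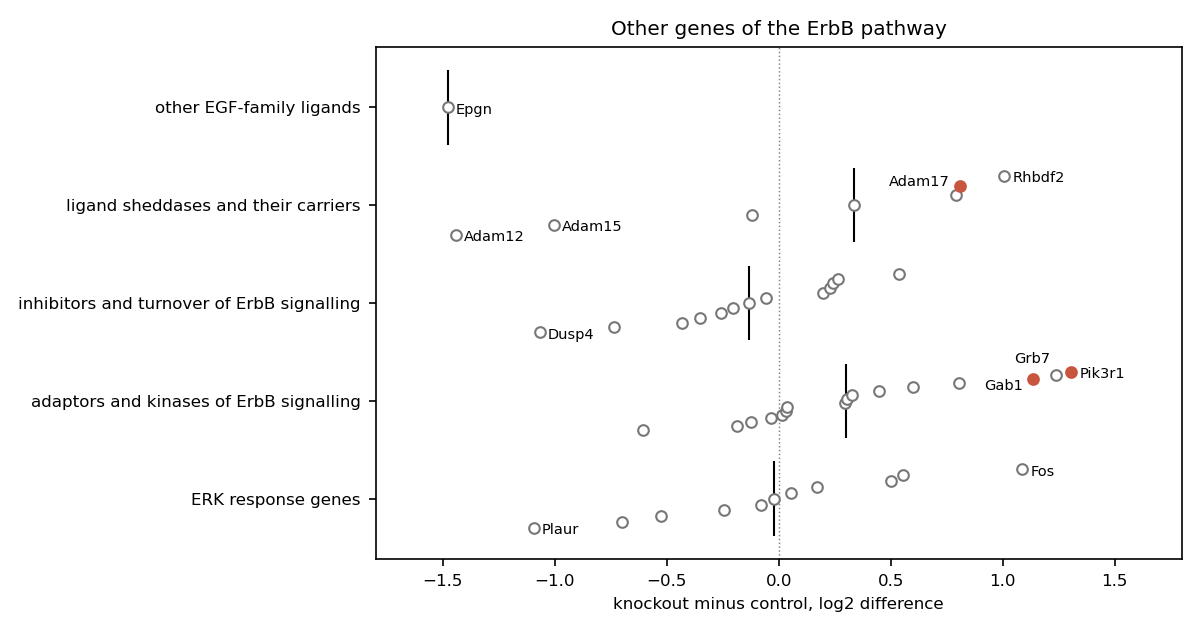
Knockout minus control log2 difference (x axis) of every tested gene in 5 lists of the ErbB pathway, 1 point per gene by the probe of highest mean, with the list's median as a vertical line. Filled red points are the called genes Adam17, Gab1 and Pik3r1, open points were not called, and the called genes and those at 1 log2 unit or beyond are named.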

How the data were processed

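Signal intensity, not normalized, and a detection p-value stand side by side for every array in the main file the authors deposited, per the file headers. They also deposited normalized log2 values. The submitters' processing notes name lumi 2.6.0, without its settings. After 4 broken lines were dropped, 45279 probes remained. The function neqc of limma 3.58.1 (R 4.3.3, offset 16) estimated the background through the detection p-values, subtracted it by normexp, and brought the log2 signals to common quantiles. A probe was tested (15885 were) when 3 or more of the 6 arrays had it above background, at a detection p under 0.05. The number of arrays limits the precision.

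Symbols came from the platform annotation: 34883 probes had 1 symbol, 18 several and 10378 none here. By gene number, 34805 matched the GRCm38.p6 gene table. Erbin stood for the listed Erbb2ip.

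The contrast of knockout minus control went through lmFit and eBayes, two-sided, with Benjamini-Hochberg adjustment over every probe in the fit. An adjusted p under 0.05 made a call. The test was checked on simulated data. Where a gene was not above background in a whole group, its fold is a lower bound against the floor, the lowest signal above background on an array (4.90 to 5.00), or the probe's own signal if higher.

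The members and lists were chosen with earlier results of these data known. Named were all members, the called genes of each pathway or neighbour list or its 2 genes of smallest p where fewer than 2 were called, the 3 genes nearest in pattern to a called member, and Cyp27b1. Others were named after their values were seen.

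Alternatives used the deposited normalized values, plain quantile normalization, an offset of 50, cyclic loess, no filter, a filter at a detection p below 0.01 on all 6 arrays, the replicate number as a block, array weights, and each tumour left out, with the other 5 normalized again.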

Additional observations from a re-analysis of the deposited data

How the results depend on the processing

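Nrg1 kept its fall and its call in all 14 alternatives, from -2.50 to -1.04 log2 units, with adjusted p-values from 0.0012 to 0.020. The number of called members was 1 in each alternative except with array weights, where it was 2 (Erbb2 was added), and 1 in each of the 6 fits without 1 tumour. Other pathway genes gave 3 calls, 6 with array weights, and 0 to 7 without 1 tumour. All called probes numbered 1461, 723 without the filter, and 481 to 1593 without 1 tumour. Values near 0 changed sign without any call: Egfr ILMN_1241496 without control 3 (0.13), Egfr ILMN_2693922 without knockout 2 (0.02) or control 3 (0.025), Egfr ILMN_2614432 with array weights (0.086) and without knockout 1 (0.13), control 1 (0.04) or control 3 (0.31), and Ereg with the authors' values (-0.0017) and without knockout 3 (-0.12). Without 1 tumour those 4 probes ranged from -0.38 to 0.13, -0.28 to 0.025, -0.34 to 0.31 and -0.12 to 0.16. The cause of these moves was not tested. Of 288 values for 21 named probes, 235 kept direction and call, 36 lost a call, 8 gained one and 9 changed sign. Akap12, Hs6st2, Wnt5a and the genes named after their values were seen are not among these probes. Cyp27b1 stayed between 0.0005 and 0.06.

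The titles give both groups the numbers 1 to 3, without calling them pairs. Deviations from the group means correlated by 0.23, 0.088 and 0.061 between same-numbered tumours, and 5 of 6 tumours correlated best with their own number. Whether the numbers mark pairs was not tested, and the main fit did not use them. With the number as a block, 1381 probes, 1 member and 3 pathway genes were called. Among the 21 named probes, Adam17 (adjusted p = 0.073), Pik3r1 (0.074) and Ppp1r1b (0.090) were lost and Adam12 (0.0497) was gained. Calls gained outside the named probes are not listed here.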
